A study of Homo sapiens with 8 samples.

Results

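The 10 genes described here belong to the integrated stress response and the amino acid response that the transcription factor ATF4 runs: ATF4 itself, DDIT3, TRIB3, ASNS, CHAC1, SESN2, PSAT1, PHGDH, SLC7A11 and SLC7A5. They were listed by name for their place in this response, with earlier results of these data known. Each was read from the probe set with exactly 1 gene symbol and the highest mean over all 8 arrays, and 10 of 10 were found among the 18404 genes measured.

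RNA came from COLO829, an established human melanoma cell line with an activating BRAF mutation, hybridised to 1 expression array per sample. All cells were infected with a pGIPZ vector, carrying either a hairpin against MITF, the transcription factor of the melanocyte lineage, or a scrambled hairpin, and selected with puromycin for 2 days. For the last 24 h they received either DMSO, the solvent control, or PLX4032 at 1 µM, a drug also called vemurafenib that blocks mutant BRAF. Each hairpin was combined with each treatment, giving 4 groups of 2 arrays (replicates A and B), called scrambled DMSO, scrambled PLX4032, knockdown DMSO and knockdown PLX4032 cells. The control groups therefore also carry a vector and have been through selection, only 1 hairpin against MITF is named, and nothing says that A and B were separate cultures, so that p-values measure the spread between these arrays, which may be technical.

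In the integrated stress response, kinases that sense amino acid shortage, misfolded protein in the endoplasmic reticulum, double-stranded RNA or heme shortage phosphorylate the translation factor eIF2. Most translation then slows, while the mRNA of ATF4 is translated better, so that the level of ATF4 mRNA alone does not report its protein. ATF4 turns on genes for amino acid synthesis, amino acid uptake and charging of tRNA, together with regulators such as DDIT3 (CHOP), which is linked to cell death under lasting stress. In melanoma cells the pathway is known for its links with MITF and with the switch between proliferative and invasive states.

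Promoter sequence is shown for the members that hold a motif of a factor under study, so that their values below can be read beside it. Of the 10 members, 9 had a promoter in the RefSeq table (GRCh38.p14), and the 250 bases before each annotated start were searched on both strands. SLC7A11 had none there and was not searched for any motif. The C/EBP-ATF composite element that ATF4 dimers bind, searched as TGATGNAA, was found in 2 of the 9, ASNS and CHAC1, and in 3.12% of the 14230 measured genes with a promoter in the table. The E-box that MITF binds, searched as CACGTG, was found in 2 of the 9, ATF4 and SLC7A5, and in 9.8% of those genes, whereas the M-box core CATGTG (9.82% of genes) and TGACNNNGC, a core of the element bound by the oxidative stress factor NRF2 (15.1%), were found in none of the 9. The core of the cAMP response element, TGACG, was found in 3 of the 9 (ATF4, ASNS and SLC7A5) and in 31.0% of genes. No searched motif overlaps another in the stretches below, each 60 bases long and written 5′ to 3′ on the strand of the gene, with the composite element in capitals for ASNS (chr7:97872443-97872502, minus strand) and CHAC1 (chr15:40953236-40953295, plus strand) and the E-box in capitals for ATF4 (chr22:39520450-39520509, plus strand) and SLC7A5 (chr16:87869605-87869664, minus strand).
ASNS: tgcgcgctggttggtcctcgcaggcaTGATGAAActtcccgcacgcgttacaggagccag
CHAC1: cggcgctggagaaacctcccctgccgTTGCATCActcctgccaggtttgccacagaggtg
ATF4: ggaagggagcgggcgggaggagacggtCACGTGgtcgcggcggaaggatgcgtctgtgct
SLC7A5: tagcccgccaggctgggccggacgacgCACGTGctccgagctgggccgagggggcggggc
The element of ASNS begins 68 bases before that start and that of CHAC1 209 bases before it, on the opposite strand. The E-box begins 82 bases before the start in ATF4 and 130 bases before it in SLC7A5. A match describes these letters only and does not show that a factor binds there.

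Levels are log2 intensities, and changes are differences of group means on that scale, given ± SE from 1 limma fit over all 8 arrays with p-values adjusted over 18404 genes (Benjamini-Hochberg, two-sided, n = 2 arrays per group). A gene is said to rise or fall where the adjusted p is under 0.05. The labels held for the targeted gene: MITF was lower on knockdown by 0.93 ± 0.080 in DMSO (log2 change -0.93, adjusted p = 8.28e-06) and by 0.76 ± 0.080 under PLX4032 (-0.76, adjusted p = 3.02e-05). MITF also rose under PLX4032, in knockdown cells (0.56 ± 0.080, limma adjusted p = 0.000239) and in scrambled cells (0.35 to 0.47 over all alternatives). With both perturbations against scrambled DMSO cells it therefore read only -0.41 to -0.33 over all alternatives. DUSP6, a phosphatase gene that ERK signalling keeps on, fell under PLX4032 in scrambled cells (-2.68 ± 0.084) and in knockdown cells (-2.55 ± 0.084). Replicate arrays correlated at 0.997 to 0.998 across genes, which are not independent replicates. Of 7 measured melanocyte markers, at most 2 lay below the median gene in any group, and their summed intensity was 12100 to 21100. These markers moved too: 1 rose and 4 fell on knockdown in DMSO, and 6 rose and 0 fell under PLX4032 in scrambled cells. TYRP1 and MLANA moved most there (-2.55 ± 0.098 and -1.83 ± 0.095 on knockdown, 2.07 ± 0.098 and 2.24 ± 0.095 under PLX4032). Under PLX4032 in knockdown cells TYRP1 rose by 3.48 ± 0.098 and MLANA by 1.38 ± 0.095. Of the markers of other cells, 4 of 5 for leukocytes, 5 of 6 for fibroblasts and 6 of 6 for keratinocytes lay below it in every group, with the leukocyte gene PTPRC at 3.27 to 3.44 (group means). The exceptions were bright: CD68, a lysosomal gene of macrophages, at 10.49 to 10.95 and LUM at 9.37 to 9.81. Summed intensities were 1470 to 2230 for the leukocyte list, 884 to 1190 for the fibroblast list and 179 to 195 for the keratinocyte list. Some of these genes moved with the groups: CD14 rose on knockdown in DMSO and in PLX4032 (0.85 ± 0.11 and 0.70 ± 0.11), and CD68 rose on knockdown in DMSO (0.28 ± 0.097) and with PLX4032 in scrambled cells (0.46 ± 0.097). LUM rose in these last comparisons too (0.39 ± 0.085 and 0.42 ± 0.085). COL1A2 fell in them (-0.41 ± 0.083 and -0.77 ± 0.083), and COL3A1 rose on knockdown in PLX4032 (0.66 ± 0.10) and with PLX4032 in knockdown cells (0.57 ± 0.10). Their part in the results below was not tested. In bulk RNA, fewer cells expressing a gene and less RNA per cell cannot be told apart.

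The 10 genes did not move as a block. On knockdown in DMSO 3 rose and 4 fell, where 33.2% of all genes were called (14.4% higher, 18.8% lower). Under PLX4032 in scrambled cells 3 rose and 4 fell, against 34.1% of all genes (17.3% higher, 16.8% lower). Under PLX4032 in knockdown cells 3 rose and 4 fell, against 33.7% (18.6% higher, 15.1% lower). On knockdown in PLX4032 2 rose and 4 fell, against 28.5% (13.5% higher, 15% lower). In both perturbations against scrambled DMSO cells 2 rose and 5 fell, against 48.6% (27.1% higher, 21.5% lower). The members' median log2 change was -0.13, -0.03, 0.01, -0.16 and -0.45 in the same order, against 0.02, 0.05, 0.04, 0.02 and 0.08 for all genes. The medians hide opposite changes: DDIT3 and SESN2 were higher in each perturbed group than in scrambled DMSO cells, PHGDH was lower in each, SLC7A11 was low wherever PLX4032 was present, and PSAT1 and SLC7A5 were low wherever the MITF hairpin was present. These comparisons share arrays and are not independent of each other. The list was chosen with earlier results of these data known, so its counts beside the shares of all genes are not a test. Leaving out 1 array brought the count for PLX4032 in knockdown cells from 7 down to 3 (without knockdown DMSO replicate B) or 4 (without knockdown DMSO replicate A or knockdown PLX4032 replicate B).

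**Figure D1:**
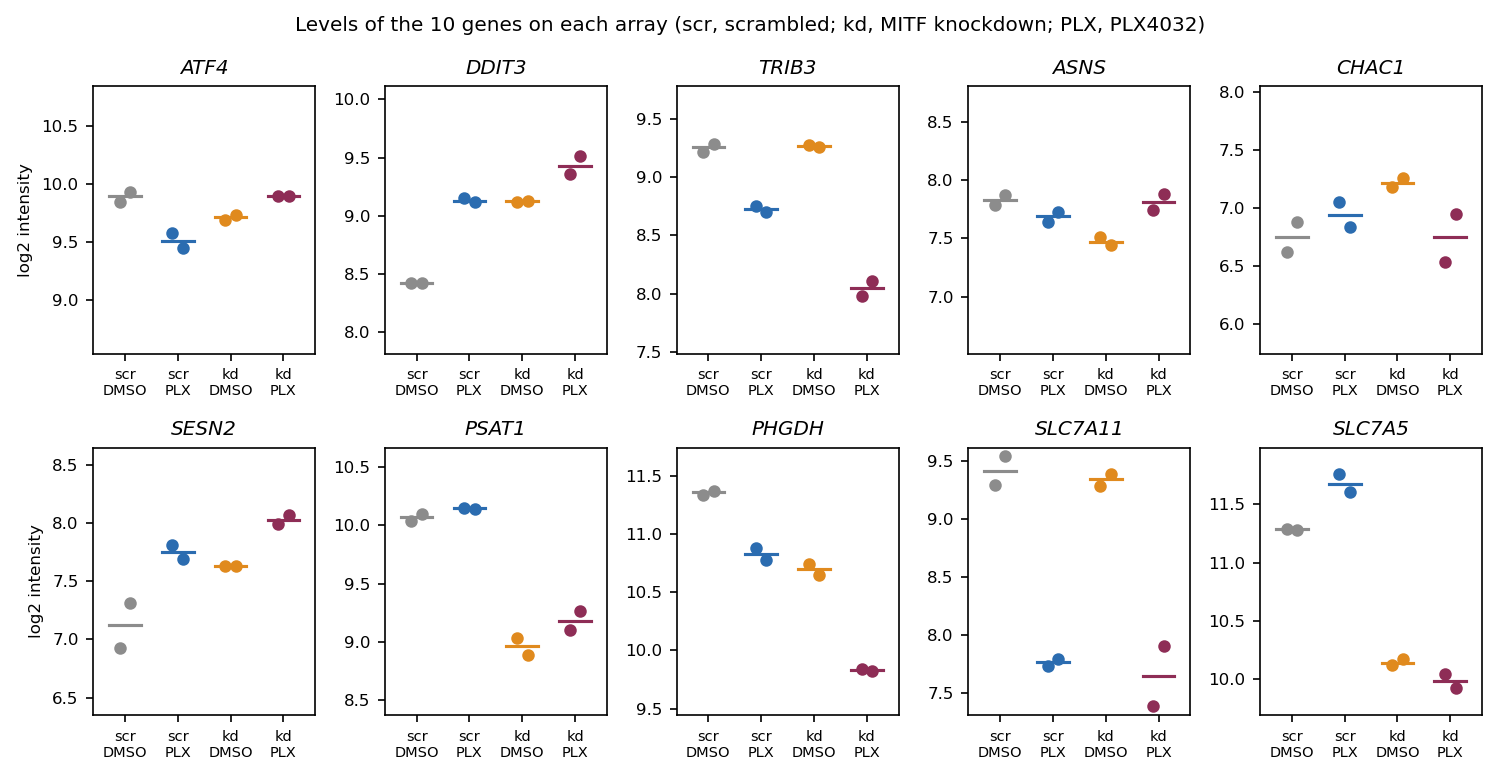
Log2 intensity (vertical axis) of each of the 10 genes on the 8 arrays, by group on the horizontal axis; points are replicates A (left) and B (right), and bars are group means. Every panel spans the same log2 range, so the wide steps of SLC7A11 under PLX4032 and of PSAT1 and SLC7A5 on MITF knockdown can be set against the small ones of ATF4 and ASNS.

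ATF4 mRNA changed little, and its 2 probe sets gave different accounts of it. The probe set with the higher mean, 8180337, read 9.84 and 9.93 in scrambled DMSO cells, 9.58 and 9.45 in scrambled PLX4032 cells, 9.69 and 9.73 in knockdown DMSO cells, and 9.89 and 9.89 in knockdown PLX4032 cells. By this probe set ATF4 fell under PLX4032 in scrambled cells (-0.37 ± 0.084, limma adjusted p = 0.00523) and was higher on knockdown in PLX4032 (0.37 ± 0.084, adjusted p = 0.00592). It read -0.17 ± 0.084 on knockdown in DMSO (adjusted p = 0.133) and 0.18 ± 0.084 under PLX4032 in knockdown cells (adjusted p = 0.135), and neither passed the test. The highest group, knockdown PLX4032, overlapped scrambled DMSO, and the other neighbouring groups did not overlap.

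The second ATF4 probe set, 8073148, read 9.44 and 9.48 in scrambled DMSO cells, 9.59 and 9.50 in scrambled PLX4032 cells, 9.50 and 9.63 in knockdown DMSO cells, and 9.93 and 10.03 in knockdown PLX4032 cells. Here only the cells with both perturbations stood apart. In the fit over all probe sets it read 0.08 ± 0.085 under PLX4032 in scrambled cells (limma adjusted p = 0.503) and rose under PLX4032 in knockdown cells (0.42 ± 0.085, adjusted p = 0.00318). With both perturbations against scrambled DMSO cells, the first probe set read 0.00 ± 0.084 (adjusted p = 0.979), the second rose (0.52 ± 0.085, adjusted p = 0.000574), and their mean rose by 0.26 (adjusted p = 0.0225). Both probe sets were higher on knockdown in PLX4032, the second by 0.44 ± 0.085 (adjusted p = 0.00322). The fall under PLX4032 in scrambled cells was -0.14 when the probe sets were averaged and no longer passed the test (adjusted p = 0.214). Without scrambled PLX4032 replicate B the rise on knockdown in PLX4032 was 0.31 (adjusted p = 0.0538). Probes of ATF4, PSAT1 and SLC7A5 can also read near-identical pseudogene copies.

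DDIT3, the gene of the stress transcription factor CHOP, was lowest in scrambled DMSO cells and highest in cells with both perturbations. It read 8.42 and 8.42 in scrambled DMSO cells, 9.15 and 9.12 in scrambled PLX4032 cells, 9.12 and 9.13 in knockdown DMSO cells, and 9.36 and 9.51 in knockdown PLX4032 cells. No perturbed array overlapped the scrambled DMSO arrays, whereas the groups with a single perturbation overlapped each other. DDIT3 rose by 0.71 ± 0.083 on knockdown in DMSO (1.63-fold, limma adjusted p = 7.52e-05) and by 0.72 ± 0.083 under PLX4032 in scrambled cells (1.64-fold, adjusted p = 5.6e-05). Both perturbations together raised it by 1.02 ± 0.083 (2.02-fold, adjusted p = 1.84e-06). The further steps were smaller: 0.31 ± 0.083 under PLX4032 in knockdown cells (adjusted p = 0.0131) and 0.30 ± 0.083 on knockdown in PLX4032 (adjusted p = 0.0182). The first of these calls ended without knockdown DMSO replicate A or B or knockdown PLX4032 replicate B (0.23 to 0.32, adjusted p = 0.0642 to 0.11). The second ended without knockdown PLX4032 replicate B or scrambled PLX4032 replicate A or B (0.23 to 0.32, adjusted p = 0.0634 to 0.125).

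TRIB3 encodes a pseudokinase that binds ATF4 and DDIT3 products and restrains them, and is itself one of their targets, yet its mRNA did not follow that of DDIT3. It read 9.22 and 9.29 in scrambled DMSO cells, 8.75 and 8.70 in scrambled PLX4032 cells, 9.28 and 9.26 in knockdown DMSO cells, and 7.98 and 8.11 in knockdown PLX4032 cells. The DMSO groups overlapped, and both PLX4032 groups lay below them without overlap. Under PLX4032 TRIB3 fell 1.45-fold in scrambled cells (-0.53 ± 0.082, limma adjusted p = 0.000452) and 2.33-fold in knockdown cells (-1.22 ± 0.082, limma adjusted p = 7.29e-07). Knockdown read 0.01 ± 0.082 in DMSO (adjusted p = 0.938), whereas in PLX4032 it lowered TRIB3 (-0.68 ± 0.082, adjusted p = 9.15e-05). All TRIB3 calls held without each array in turn.

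SESN2 encodes sestrin 2, a leucine sensor that holds back the growth kinase complex mTORC1. As for DDIT3, its lowest group was scrambled DMSO and its highest knockdown PLX4032. The groups between were not ordered for DDIT3, where both averaged 9.13 and overlapped. SESN2 read 6.93 and 7.31 in scrambled DMSO cells, 7.81 and 7.69 in scrambled PLX4032 cells, 7.63 and 7.63 in knockdown DMSO cells, and 7.99 and 8.07 in knockdown PLX4032 cells. No neighbouring groups of SESN2 overlapped, although the scrambled DMSO arrays lay well apart. SESN2 rose on knockdown in DMSO (0.50 ± 0.12, limma adjusted p = 0.00687), under PLX4032 in scrambled cells (0.63 ± 0.12, adjusted p = 0.00148) and with both perturbations (0.91 ± 0.12, 1.88-fold, adjusted p = 6.58e-05). The knockdown rise was 0.31 to 0.70 and the PLX4032 rise in scrambled cells 0.44 to 0.82 over all alternatives, and both calls held in each. It also rose under PLX4032 in knockdown cells (0.41 ± 0.12, adjusted p = 0.0184), a call lost without knockdown DMSO replicate A or B or knockdown PLX4032 replicate B (0.37 to 0.41, adjusted p = 0.0812 to 0.0848). The 0.28 ± 0.12 on knockdown in PLX4032 did not pass (adjusted p = 0.0996), but did with repeated quantile normalization (0.34, adjusted p = 0.026) and without scrambled DMSO replicate A or B (0.28, adjusted p = 0.0288).

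CHAC1, which encodes an enzyme that breaks down glutathione and is a known ATF4 target, stood apart in knockdown DMSO cells alone. It read 6.62 and 6.88 in scrambled DMSO cells, 7.05 and 6.84 in scrambled PLX4032 cells, 7.18 and 7.26 in knockdown DMSO cells, and 6.54 and 6.95 in knockdown PLX4032 cells. The knockdown DMSO arrays stood above all others, and the other 3 groups overlapped. CHAC1 rose on knockdown in DMSO (0.46 ± 0.14, limma adjusted p = 0.0247) and fell under PLX4032 in knockdown cells (-0.47 ± 0.14, adjusted p = 0.0214). The first call ended without knockdown DMSO replicate A or B or scrambled DMSO replicate A (0.34 to 0.50, adjusted p = 0.0722 to 0.132). The second ended without knockdown DMSO replicate A or B or knockdown PLX4032 replicate A (-0.51 to -0.26, adjusted p = 0.0639 to 0.181). The -0.20 ± 0.14 on knockdown in PLX4032 did not pass (adjusted p = 0.337) except without knockdown PLX4032 replicate B (-0.40, adjusted p = 0.0464).

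Of the amino acid synthesis genes, PHGDH and PSAT1 stand for consecutive steps of serine synthesis from a glycolytic intermediate, and ASNS makes asparagine. PHGDH read 11.34 and 11.37 in scrambled DMSO cells, 10.88 and 10.78 in scrambled PLX4032 cells, 10.74 and 10.65 in knockdown DMSO cells, and 9.84 and 9.82 in knockdown PLX4032 cells. The groups did not overlap, and the level stepped down with each perturbation. PHGDH fell on knockdown in DMSO (-0.66 ± 0.081, limma adjusted p = 0.00011), under PLX4032 in scrambled cells (-0.52 ± 0.081, adjusted p = 0.000466), under PLX4032 in knockdown cells (-0.86 ± 0.081, adjusted p = 9.35e-06) and on knockdown in PLX4032 (-1.0 ± 0.081, adjusted p = 4.05e-06). With both perturbations it was 2.87-fold lower (-1.52 ± 0.081, adjusted p = 7.45e-08).

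PSAT1 was low in both groups with the MITF hairpin. It read 10.04 and 10.10 in scrambled DMSO cells, 10.15 and 10.14 in scrambled PLX4032 cells, 9.03 and 8.89 in knockdown DMSO cells, and 9.10 and 9.26 in knockdown PLX4032 cells. All 4 knockdown arrays lay below all 4 scrambled arrays. The fall was 2.16-fold on knockdown in DMSO (-1.11 ± 0.089, limma adjusted p = 5.04e-06) and 1.95-fold in PLX4032 (-0.96 ± 0.089, adjusted p = 1.17e-05). Under PLX4032 PSAT1 read 0.08 ± 0.089 in scrambled cells (limma adjusted p = 0.55) and 0.23 ± 0.089 in knockdown cells (limma adjusted p = 0.076), short of the threshold. The latter passed with the dimmest 40% of genes left out (0.23, adjusted p = 0.0391), with repeated quantile normalization (0.22, adjusted p = 0.0418) and with a robust trended variance (0.23, adjusted p = 0.0222).

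ASNS, whose promoter holds the composite element shown above, spanned 0.35 between its group means, against 1.19 for PSAT1 and 1.52 for PHGDH. It read 7.79 and 7.87 in scrambled DMSO cells, 7.64 and 7.73 in scrambled PLX4032 cells, 7.51 and 7.44 in knockdown DMSO cells, and 7.74 and 7.88 in knockdown PLX4032 cells. The knockdown DMSO arrays were the lowest, and the cells with both perturbations overlapped the scrambled DMSO arrays. ASNS fell on knockdown in DMSO (-0.35 ± 0.087, limma adjusted p = 0.00944) and rose under PLX4032 in knockdown cells (0.34 ± 0.087, adjusted p = 0.0108). The fall lost its call without replicate B of knockdown DMSO or of scrambled DMSO (-0.32 and -0.31, adjusted p = 0.0788 and 0.0609). The rise lost it without knockdown DMSO replicate B or knockdown PLX4032 replicate B (0.30 and 0.27, adjusted p = 0.0882 and 0.086).

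SLC7A11 encodes the cystine transporter xCT, which supplies cysteine for glutathione and guards cells against ferroptosis, and it had the widest range of the 10 genes (1.76 between group means). It read 9.29 and 9.54 in scrambled DMSO cells, 7.74 and 7.80 in scrambled PLX4032 cells, 9.28 and 9.39 in knockdown DMSO cells, and 7.39 and 7.91 in knockdown PLX4032 cells. All 4 PLX4032 arrays lay below all 4 DMSO arrays, and within each treatment the hairpins overlapped. PLX4032 lowered SLC7A11 3.13-fold in scrambled cells (-1.65 ± 0.15, limma adjusted p = 8.9e-06) and 3.22-fold in knockdown cells (-1.69 ± 0.15, adjusted p = 5.67e-06). Knockdown read -0.08 ± 0.15 in DMSO (adjusted p = 0.731) and -0.12 ± 0.15 in PLX4032 (adjusted p = 0.606). The knockdown PLX4032 arrays differed widely, and the second value ranged from -0.38 to 0.14 with each array left out. It passed the test without knockdown PLX4032 replicate B (-0.38, adjusted p = 0.0418).

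SLC7A5 encodes LAT1, the light chain of the exchanger that brings in leucine and other large neutral amino acids. It read 11.29 and 11.28 in scrambled DMSO cells, 11.76 and 11.61 in scrambled PLX4032 cells, 10.12 and 10.17 in knockdown DMSO cells, and 10.04 and 9.92 in knockdown PLX4032 cells. No groups overlapped, and all 4 knockdown arrays lay below all 4 scrambled arrays. Knockdown lowered SLC7A5 2.21-fold in DMSO (-1.14 ± 0.086, limma adjusted p = 3.17e-06) and 3.25-fold in PLX4032 (-1.70 ± 0.086, adjusted p = 1.13e-07). PLX4032 raised it in scrambled cells (0.40 ± 0.086, adjusted p = 0.00401) and read -0.16 ± 0.086 in knockdown cells (adjusted p = 0.196).

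**Figure D2:**
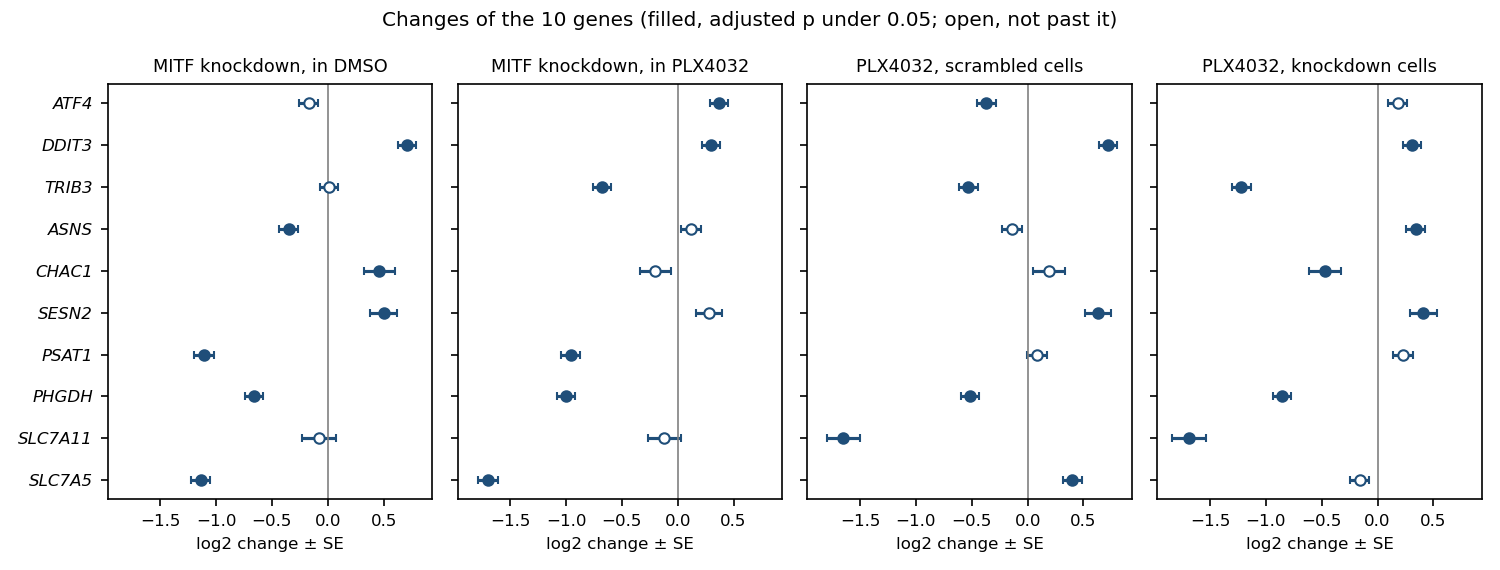
Log2 change ± SE (horizontal axis) of the 10 genes (rows) on MITF knockdown in DMSO and in PLX4032 and under PLX4032 in scrambled and in knockdown cells; filled points have an adjusted p under 0.05. PSAT1 and SLC7A5 lie far to the left in the knockdown panels, SLC7A11 in the PLX4032 panels, and PHGDH to the left in all 4.

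The response to PLX4032 was compared between knockdown and scrambled cells by the interaction term, which is the change in knockdown cells minus that in scrambled cells. It was called for 5 of the 10 genes, against 11.8% of all genes (6.97% higher, 4.85% lower). It was lower than 0 for TRIB3 (-0.69 ± 0.12, limma adjusted p = 0.00285), SLC7A5 (-0.56 ± 0.12, adjusted p = 0.0125) and DDIT3 (-0.41 ± 0.12, adjusted p = 0.0463), and higher for ATF4 (0.55 ± 0.12, adjusted p = 0.0117) and ASNS (0.48 ± 0.12, adjusted p = 0.0289). For TRIB3 the fall under PLX4032 was deeper in knockdown cells, for DDIT3 the rise was smaller, and for SLC7A5 a rise in scrambled cells had no counterpart that passed in knockdown cells. The term did not pass for CHAC1 (-0.66 ± 0.20, adjusted p = 0.0529), PHGDH (-0.34 ± 0.11, adjusted p = 0.0841), SESN2 (-0.22 ± 0.16, adjusted p = 0.463), PSAT1 (0.15 ± 0.13, adjusted p = 0.531) and SLC7A11 (-0.04 ± 0.21, adjusted p = 0.932). The CHAC1 term passed with the dimmest 40% of genes left out, a robust trended variance, array weights or the replicate block (-0.66, adjusted p = 0.0216 to 0.0435), and without knockdown PLX4032 replicate B (-0.87, adjusted p = 0.00826) or scrambled DMSO replicate B (-0.79, adjusted p = 0.0332). The PHGDH term passed with the dimmest 40% left out, repeated quantile normalization, centred arrays or a robust trended variance (-0.40 to -0.34, adjusted p = 0.0174 to 0.041). The TRIB3 call held without each array in turn. The ATF4 call was lost without knockdown DMSO replicate A or scrambled PLX4032 replicate B (0.53 and 0.48, adjusted p = 0.0537 and 0.0504) and did not pass by its other probe set (0.34 ± 0.12, adjusted p = 0.114). The SLC7A5 call was lost without knockdown DMSO replicate B or scrambled PLX4032 replicate A (-0.53 and -0.49, adjusted p = 0.0622 and 0.057). The ASNS call held without knockdown PLX4032 replicate A or scrambled DMSO replicate A and was lost without any other array (0.41 to 0.52, adjusted p = 0.0521 to 0.121). The DDIT3 call held only without knockdown PLX4032 replicate B and was lost without any other array (-0.42 to -0.33, adjusted p = 0.0836 to 0.148), with every probe set tested (-0.41, adjusted p = 0.0503) and with the replicate block (-0.41, adjusted p = 0.0566). The members called numbered 2 without knockdown DMSO replicate A or B or scrambled PLX4032 replicate A or B.

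**Figure D3:**
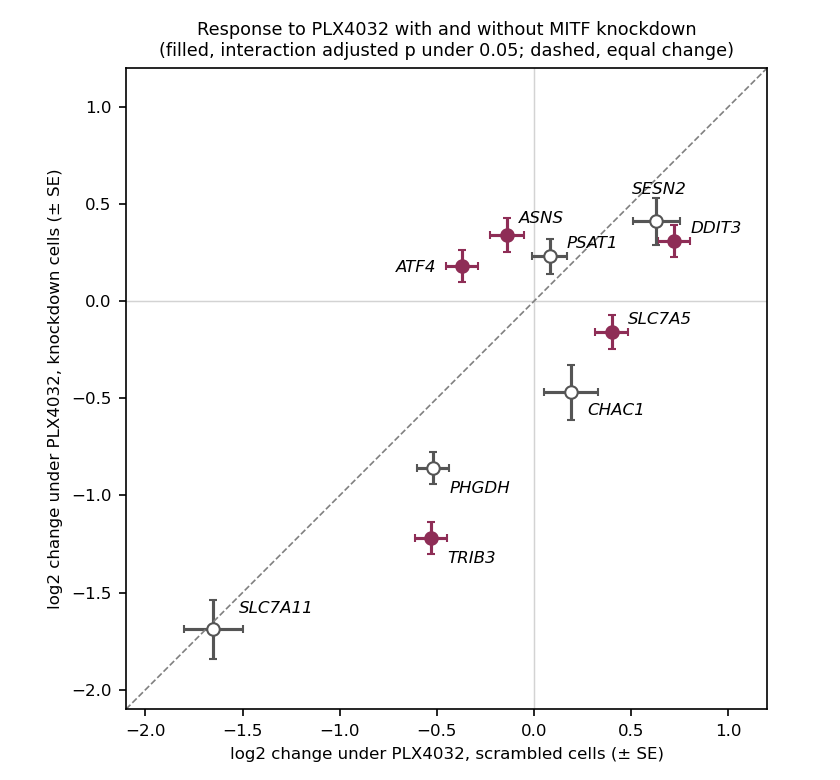
Log2 change under PLX4032 ± SE in scrambled cells (horizontal axis) and in knockdown cells (vertical axis), 1 point per gene; filled points have an interaction adjusted p under 0.05, and the dashed line marks equal change. TRIB3, DDIT3 and SLC7A5 lie below the line, ATF4 and ASNS above it, and SLC7A11 close to it.

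Likeness of pattern was measured as the root mean square difference between group means, each gene centred on its own mean, over the 4 groups. Among the members the closest pair was DDIT3 and SESN2 (0.0724), followed by ATF4 and ASNS (0.146) and PSAT1 and SLC7A5 (0.262). The measure is not scaled by span, so genes that change little score as alike. ATF4 and ASNS spanned only 0.37 and 0.35 between group means, and their orders of groups differed. By the probe set with the higher mean, ATF4 was lowest in scrambled PLX4032 cells, and ASNS was lowest in knockdown DMSO cells. For the 6 members whose group means span at least 1, the 3 nearest of all genes were named. They were MIRLET7I (0.0232), SLFN12 (0.0262) and CRELD1 (0.0514) for DDIT3, and ENTPD6 (0.032), RAP1GAP2 (0.0371) and the fatty acid synthase gene FASN (0.0378) for TRIB3. PSAT1 was nearest to SNORD1B (0.0585), RBM24 (0.0708) and HOMER2 (0.0865), and PHGDH to CLUH (0.0621), the thioredoxin gene TXN (0.0679) and CORO1A (0.0702). SLC7A11 was nearest to MFSD2A (0.0724), the RNA polymerase I gene POLR1B (0.0746) and LRATD2 (0.0856). SLC7A5 was nearest to NARS2 (0.0358), the mitochondrial asparaginyl-tRNA synthetase gene, RAD51B (0.0781) and RRAGD (0.0894), a GTPase gene of lysosomal amino acid sensing.

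Other genes of the response were followed in lists, whose counts are of genes that rose and fell. Of all genes, 33.2% were called on knockdown in DMSO and 28.5% on knockdown in PLX4032. Under PLX4032 the share was 34.1% in scrambled cells and 33.7% in knockdown cells. Shares by direction and medians of all genes are given above for each comparison. Among 11 genes listed with the eIF2 kinases and the phosphatase that reverses them, 3 rose and 3 fell on knockdown in DMSO (median 0.05), and 5 rose and 0 fell on knockdown in PLX4032 (0.07). EIF2AK3 (PERK, the kinase of endoplasmic reticulum stress) rose by 1.04 ± 0.093 and 0.70 ± 0.093 in these comparisons, and EIF2AK2 (PKR, the kinase of double-stranded RNA, itself induced by interferon) by 0.69 ± 0.097 and 0.81 ± 0.097. PPP1R15A (GADD34) and PPP1R15B, the subunits that guide the phosphatase to eIF2, rose on knockdown in PLX4032 (0.70 ± 0.078 and 0.74 ± 0.079). Under PLX4032, 2 rose and 5 fell in scrambled cells (median -0.14), where DNAJC3 of this list rose most (0.77 ± 0.094). In knockdown cells 2 rose and 1 fell (0.13): PPP1R15A rose by 0.89 ± 0.078, and the gene that fell was EIF2AK3 (-0.46 ± 0.093). In scrambled cells 1 rose and 1 fell without scrambled PLX4032 replicate B, and 1 rose and 3 fell without scrambled DMSO replicate B. In knockdown cells 4 rose and 3 fell with the dimmest 40% of genes left out or a robust trended variance, 4 rose and 1 fell with repeated quantile normalization, and 2 rose and 3 fell with each array centred on its median. Adjusted p for the rises and falls of the genes named was at most 0.00246.

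Of 10 genes listed with eIF2 and eIF2B, among them the translation repressor gene EIF4EBP1, an ATF4 target, 5 fell and 0 rose under PLX4032 in scrambled cells (median -0.30) and 3 fell and 0 rose in knockdown cells (-0.16). EIF4EBP1 fell by 0.90 ± 0.10 (log2 change -0.90) and by 2.03 ± 0.10 (-2.03), and EIF2B3 by 0.71 ± 0.10 (-0.71) and 0.83 ± 0.10 (-0.83). On knockdown, 1 rose and 1 fell in DMSO (median -0.11), where EIF4EBP1 rose by 0.42 ± 0.10, and 1 rose and 2 fell in PLX4032 (-0.07), where it fell by 0.70 ± 0.10 (-0.70). In the same order 5, 3, 2 and 3 of the 10 were called, against 34.1%, 33.7%, 33.2% and 28.5% of all genes. On knockdown in DMSO the counts of rises and falls were 0 and 0 without knockdown DMSO replicate B, 1 and 3 without scrambled DMSO replicate A and 1 and 0 without scrambled DMSO replicate B. The EIF4EBP1 rise there was 0.38 without knockdown DMSO replicate B and no longer passed (adjusted p = 0.0692). With a robust trended variance they were 1 and 4 there, and 0 and 5 under PLX4032 in knockdown cells.

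Among 12 bZIP partners, other stress factors and Tribbles genes, 2 rose and 1 fell on knockdown in DMSO (median 0.11) and 4 rose and 3 fell on knockdown in PLX4032 (0.13). Under PLX4032, 2 rose and 3 fell in scrambled cells (0.10) and 3 rose and 3 fell in knockdown cells (-0.02). In the same order 3, 7, 5 and 6 of the 12 were called, against 33.2%, 28.5%, 34.1% and 33.7% of all genes. The TRIB3 paralogs TRIB1 and TRIB2 fell under PLX4032 in knockdown cells (-2.49 ± 0.080 and -0.95 ± 0.081), whereas in scrambled cells TRIB1 fell by less (-0.35 ± 0.080) and TRIB2 read 0.15 ± 0.081. ATF3, a repressor that ATF4 induces, rose under PLX4032 in scrambled cells (0.54 ± 0.14) and in knockdown cells (1.56 ± 0.14), and ATF5 fell in scrambled cells (-0.45 ± 0.10) and read -0.06 ± 0.10 in knockdown cells. In scrambled cells the ATF3 call was lost without scrambled DMSO replicate B (0.36, adjusted p = 0.0898) or scrambled PLX4032 replicate A or B (0.52 and 0.56, adjusted p = 0.0682 and 0.0549). The ATF5 call was lost without scrambled DMSO replicate B (-0.34, adjusted p = 0.0518), and without scrambled PLX4032 replicate B both ATF5 (-0.36, adjusted p = 0.0632) and TRIB1 (-0.29, adjusted p = 0.0511) lost theirs. CEBPB, a partner of ATF4, rose on knockdown in DMSO (0.59 ± 0.10) and fell under PLX4032 in scrambled cells (-0.77 ± 0.10) and in knockdown cells (-0.89 ± 0.10). NUPR1, a small stress-induced regulator, fell on knockdown in DMSO (-0.62 ± 0.10) and rose under PLX4032 in scrambled cells (1.13 ± 0.10). The largest called changes on knockdown in PLX4032 were falls of TRIB1 (-1.96 ± 0.080), NUPR1 (-1.42 ± 0.10) and TRIB2 (-1.17 ± 0.081) and a rise of ATF3 (1.30 ± 0.14). The rises numbered 5 on knockdown in DMSO without scrambled DMSO replicate A and 1 on knockdown in PLX4032 without scrambled PLX4032 replicate B. Under PLX4032 in scrambled cells 1 rose and 2 fell without scrambled DMSO replicate B, and 1 rose and 1 fell without scrambled PLX4032 replicate B.

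Serine, glycine and one-carbon genes were followed beyond the members themselves. Of 11 measured, 1 rose and 7 fell on knockdown in DMSO (median -0.34), 1 rose and 7 fell under PLX4032 in scrambled cells (-0.43), 2 rose and 5 fell under PLX4032 in knockdown cells (-0.36) and 1 rose and 5 fell on knockdown in PLX4032 (-0.35). MTHFD2, the mitochondrial folate enzyme, fell in all 4 comparisons (-0.57 ± 0.15, -1.23 ± 0.15, -1.47 ± 0.15 and -0.81 ± 0.15). The first call was lost without knockdown DMSO replicate A or B or scrambled DMSO replicate B (-0.58 to -0.47, adjusted p = 0.0682 to 0.0883), and the last value was -0.52 without knockdown PLX4032 replicate A (adjusted p = 0.00595). SFXN1, which carries serine into mitochondria, fell under PLX4032 in scrambled and in knockdown cells (-1.30 ± 0.10 and -1.44 ± 0.10). PSPH, which completes serine synthesis after PHGDH and PSAT1, fell on knockdown in DMSO (-0.40), read -0.03 under PLX4032 in scrambled cells and rose under it in knockdown cells (0.50). Without knockdown DMSO replicate B neither PSPH call held (-0.24, adjusted p = 0.174, and 0.34, adjusted p = 0.0533), and the fall was also lost without scrambled DMSO replicate B (-0.38, adjusted p = 0.0726). SHMT2, which splits serine to glycine in mitochondria, fell by little in all 4 (-0.29, -0.26, -0.36 and -0.38). Its fall on knockdown in DMSO lost its call without knockdown DMSO replicate A or B or scrambled DMSO replicate B (adjusted p = 0.0582 to 0.122). That under PLX4032 in scrambled cells lost it without replicate B of either scrambled group (adjusted p = 0.114 and 0.128) and with the arrays of these groups alone (adjusted p = 0.0532). The rise on knockdown in DMSO was that of GLDC, a gene of glycine cleavage (1.27 ± 0.16). The 7 falls on knockdown in DMSO numbered 4 without knockdown DMSO replicate A and 3 without replicate B of knockdown DMSO or of scrambled DMSO.

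Of 9 measured genes of proline, aspartate, glutamate, alanine and related synthesis, 0 rose and 3 fell on knockdown in DMSO (median -0.13), 2 rose and 4 fell under PLX4032 in scrambled cells (-0.09), 1 rose and 6 fell under it in knockdown cells (-0.46), and 1 rose and 7 fell on knockdown in PLX4032 (-0.41). The glutamine synthetase gene GLUL fell on knockdown in DMSO (-1.04 ± 0.094) and rose under PLX4032 in scrambled and in knockdown cells (0.87 ± 0.094 and 1.22 ± 0.094). The proline synthesis genes PYCR1 (-0.61) and PYCR3 (-0.80 ± 0.084) fell under PLX4032 in scrambled cells. Both also fell under it in knockdown cells (-1.07 ± 0.091 and -1.23 ± 0.084 in the same order). CTH, which makes cysteine from cystathionine, rose under PLX4032 in scrambled cells (0.68 ± 0.095) and fell under it in knockdown cells (-0.58 ± 0.095).

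Among 17 other amino acid transporter genes, 2 rose and 6 fell on knockdown in DMSO (median -0.09), 3 rose and 6 fell under PLX4032 in scrambled cells (-0.06), 4 rose and 6 fell under it in knockdown cells (0.10) and 2 rose and 7 fell on knockdown in PLX4032 (-0.06). SLC3A2, the heavy chain (CD98) that both SLC7A5 and SLC7A11 need, fell on knockdown in DMSO (-0.60 ± 0.094) and in PLX4032 (-0.44 ± 0.094) and read 0.13 ± 0.094 under PLX4032 in scrambled cells. SLC7A8 (LAT2), the relative of SLC7A5, fell on knockdown in DMSO (-1.07 ± 0.11) and in PLX4032 (-1.22 ± 0.11) and rose under PLX4032 in scrambled cells (1.16 ± 0.11). It also rose under PLX4032 in knockdown cells (0.90 to 1.11 over all alternatives). The arginine and lysine transporter gene SLC7A1 fell under PLX4032 in scrambled cells (-1.12 ± 0.078) and in knockdown cells (-1.81 ± 0.078), as did the glutamine transporter gene SLC1A5 (-1.01 ± 0.092 and -1.42 ± 0.092). SLC1A4, a transporter of neutral amino acids such as serine and alanine, rose (1.63 ± 0.079 and 1.2 ± 0.079). Adjusted p for the falls and rises named was at most 0.00436.

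Cytosolic tRNA synthetase genes, many of them ATF4 targets, were mostly lower under PLX4032. Of 20 measured genes of this list, which includes the tRNA exporter gene XPOT, 13 fell and 0 rose in scrambled cells (median -0.41) and 13 fell and 0 rose in knockdown cells (-0.38). FARSB (-0.73 ± 0.085), XPOT (-0.71 ± 0.083), IARS1 (-0.69 ± 0.084) and EPRS1 (-0.64 ± 0.088) fell most in scrambled cells, and IARS1 (-0.88 ± 0.084) in knockdown cells. On knockdown 1 rose and 8 fell in DMSO (median -0.21), and 1 rose and 9 fell in PLX4032 (-0.21). The gene that rose in both was WARS1 (0.78 ± 0.081 and 0.72 ± 0.081), a synthetase gene that interferon is known to induce. The falls on knockdown in DMSO numbered 4 without knockdown DMSO replicate A, 1 without knockdown DMSO replicate B and 2 without scrambled DMSO replicate B. Those in PLX4032 numbered 3 without knockdown PLX4032 replicate A and 4 without scrambled PLX4032 replicate A.

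Glutathione and NRF2 target genes were followed because SLC7A11 is also a target of that oxidative stress factor. Of 14 measured, 0 rose and 8 fell on knockdown in DMSO (median -0.29), 4 rose and 4 fell under PLX4032 in scrambled cells (-0.02), 8 rose and 2 fell under it in knockdown cells (0.26), and 4 rose and 4 fell on knockdown in PLX4032 (0.07). GCLM, a subunit of the enzyme that limits glutathione synthesis, fell on knockdown in DMSO (-1.03 ± 0.099) and in PLX4032-treated scrambled cells (-0.63 ± 0.099) and rose under it in knockdown cells (0.55 ± 0.099). The heme-degrading enzyme gene HMOX1 rose under PLX4032 in both (0.79 ± 0.096 and 1.74 ± 0.096), and the NADPH-producing enzyme gene ME1 fell in scrambled cells (-1.35 ± 0.096). GPX4, the peroxidase that stops ferroptosis, read between -0.01 and 0.09 in these 4 comparisons. On knockdown in DMSO 5 fell without knockdown DMSO replicate B, and under PLX4032 in scrambled cells 2 rose and 3 fell without scrambled PLX4032 replicate B. In knockdown cells 4 rose and 2 fell without knockdown DMSO replicate A or B, and likewise with each array centred on its median.

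Endoplasmic reticulum chaperones and other targets of ATF6 and XBP1, the arms of the unfolded protein response that do not run through eIF2, were mostly higher on knockdown in DMSO: 10 of 18 measured rose and 0 fell (median 0.25). DNAJB9 (1.11 ± 0.12), CRELD2 (0.59 ± 0.078), SYVN1 (0.59 ± 0.078) and MANF (0.42 ± 0.081) rose most, while the major chaperone gene HSPA5 read 0.23 ± 0.096 (adjusted p = 0.0917). On knockdown in PLX4032, 3 rose and 2 fell (median 0.08). Under PLX4032 3 rose and 1 fell in scrambled cells (0.05) and 1 rose and 7 fell in knockdown cells (-0.10), among them EDEM1 (-0.61 ± 0.086), SDF2L1 (-0.51 ± 0.081) and MANF (-0.45 ± 0.081). On knockdown in DMSO 6 rose without knockdown DMSO replicate A, and under PLX4032 in knockdown cells 4 fell without knockdown DMSO replicate A or B. On knockdown in PLX4032, 2 rose and 1 fell without knockdown or scrambled PLX4032 replicate A or with the arrays of these groups alone, 2 rose and 0 fell without knockdown PLX4032 replicate B, and 1 rose and 1 fell without scrambled PLX4032 replicate B. There 6 rose and 3 fell with the dimmest 40% of genes left out, and 5 rose and 3 fell with a robust trended variance. With repeated quantile normalization 6 rose and 1 fell under PLX4032 in scrambled cells.

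**Figure D4:**
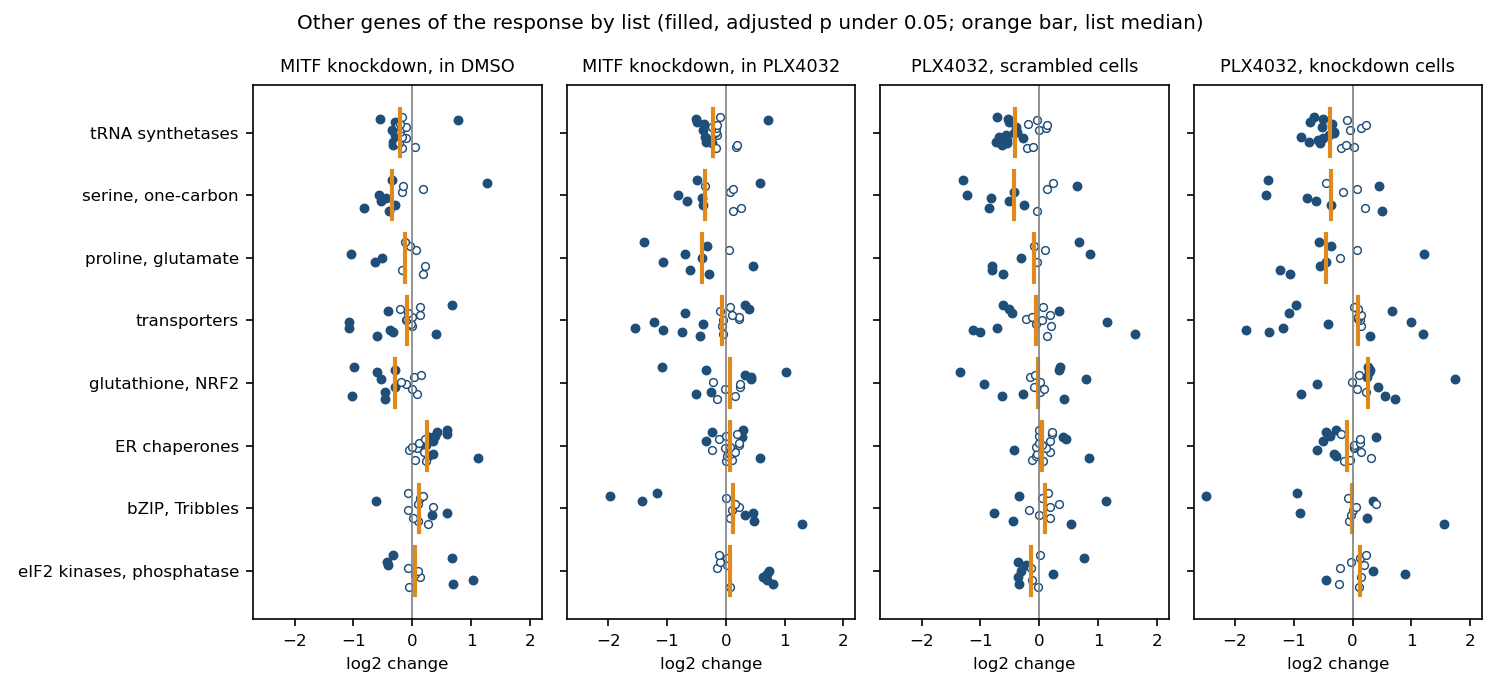
Log2 change (horizontal axis) of single genes in 8 lists of the response (rows; the 10 members are not included) in 4 comparisons; filled points have an adjusted p under 0.05, and orange bars are list medians. The tRNA synthetase medians lie at -0.41 and -0.38 under PLX4032, and the median of the endoplasmic reticulum list lies at 0.25 on knockdown in DMSO.

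Among 17 other secreted and signalling targets, 3 rose and 5 fell on knockdown in DMSO (median 0.04), 6 rose and 5 fell under PLX4032 in scrambled cells (0.15), 5 rose and 4 fell under it in knockdown cells (0.17), and 7 rose and 3 fell on knockdown in PLX4032 (0.03). The sestrins differed: SESN3 rose under PLX4032 in scrambled cells (1.99 ± 0.11) and in knockdown cells (2.53 ± 0.11), and SESN1, a p53 target, fell on knockdown in DMSO (-0.37) and rose under PLX4032 in scrambled cells (0.39). The SESN1 fall lost its call without replicate B of knockdown DMSO or of scrambled DMSO (-0.29 and -0.23, adjusted p = 0.172 and 0.187) and with repeated quantile normalization (-0.26, adjusted p = 0.0563). Its rise lost it without scrambled DMSO replicate A or scrambled PLX4032 replicate A (0.25 and 0.33, adjusted p = 0.119 and 0.112). CHAC2, the relative of CHAC1, fell on knockdown in DMSO (-1.23 ± 0.12) and in PLX4032-treated scrambled cells (-1.97 ± 0.12) and in knockdown cells (-0.84 ± 0.12). The stress cytokine gene GDF15 fell under PLX4032 in scrambled cells (-0.57 ± 0.095) and in knockdown cells (-0.95 ± 0.095). VEGFA fell under PLX4032 in scrambled cells by 1.87 ± 0.090 (-1.87) and by less in knockdown cells (-0.66).

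Of 18 genes of mTORC1 and its amino acid sensing, to which SESN2 belongs by function, 2 rose and 4 fell on knockdown in DMSO (median -0.09), 3 rose and 3 fell under PLX4032 in scrambled cells (0.12), 4 rose and 0 fell under it in knockdown cells (0.03), and 0 rose and 2 fell on knockdown in PLX4032 (-0.03). In the same order 6, 6, 4 and 2 of the 18 were called, against 33.2%, 34.1%, 33.7% and 28.5% of all genes. The GTPase gene RRAGD, a known target of MITF and its relatives, fell on knockdown in DMSO (-1.21 ± 0.086) and in PLX4032 (-1.46 ± 0.086). RRAGC fell on knockdown in DMSO (-0.60 ± 0.093) and rose under PLX4032 in scrambled cells (0.67 ± 0.093) and in knockdown cells (1.30 ± 0.093). On knockdown in DMSO 0 rose and 3 fell without knockdown DMSO replicate B, on knockdown in PLX4032 0 rose and 1 fell without scrambled PLX4032 replicate A and 1 rose and 3 fell with a robust trended variance, and under PLX4032 in knockdown cells 4 rose and 3 fell with each array centred on its median.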

How the data were processed

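RNA of 8 samples was measured on 8 arrays, and precision is limited by their number. The deposited values are log2 intensities that the authors made with RMA, per the submitters' processing notes; the sources used here give neither its version nor the array's genome build. Of 32321 probe sets, 19158 have 1 gene symbol, 1388 several and 11775 none here, in an annotation from 2016; the probe set with the highest mean was kept for each of 18404 genes. Group means were fitted over all 8 arrays with limma 3.58.1 (lmFit, eBayes; R 4.3.3) and p-values adjusted by Benjamini-Hochberg, and the script was tested on simulated data. The members and lists were chosen with earlier results of these data known. List genes are named where they are relatives or partners of a member, or among the largest called changes of a list, and, a choice made after their values were seen, wherever their interaction was called. Alternatives were the mean of probe sets, every probe set, no dim genes, repeated quantile normalization, median centring, a robust trended variance, array weights, the replicate block, only the arrays compared, and leaving out each array. Promoters are RefSeq's (GRCh38.p14).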

Additional observations from a re-analysis of the deposited data

Results flagged for a closer look

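The results below differed between knockdown and scrambled cells in their response to PLX4032, by the interaction term (log2 change in knockdown cells minus that in scrambled cells, limma, adjusted p under 0.05, against 11.8% of all genes). The 42 genes are all those called among the 10 genes (5 of 10) and the lists of the response. By list they were 5 of 11 for eIF2 kinases and phosphatase, 1 of 10 for eIF2 and eIF2B, and 4 of 12 for bZIP and other stress factors. Of metabolic genes they were 2 of 11 for serine and one-carbon, 3 of 9 for proline and related synthesis, and 5 of 17 for transporters. The rest were 1 of 20 tRNA synthetase, 5 of 14 glutathione, 4 of 18 endoplasmic reticulum, 5 of 17 secreted and signalling, and 2 of 18 mTORC1 genes. The lists were chosen with earlier results of these data known, so the 42 calls are not a test against that share. Of these calls, 23 held without each array in turn, and 19 were lost without at least 1 array, with adjusted p reaching 0.0517 to 0.193.

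Calls that held without each array in turn were, among the 10 genes, TRIB3 (-0.69). Its relatives TRIB1 (-2.15) and TRIB2 (-1.10) differed in the same direction. Among other stress and signalling genes they were ATF3 (1.03), NUPR1 (-0.79), EIF4EBP1 (-1.13), PPP1R15A (0.65), PPP1R15B (0.65), VEGFA (1.21), CHAC2 (1.13), VLDLR (0.89), DDIT4 (0.74) and WIPI1 (-0.72). Among metabolic genes and transporters they were SHMT1 (1.08), CTH (-1.26), SLC7A1 (-0.69) and SLC43A1 (-0.62). Among glutathione and NRF2 targets they were ME1 (1.63), GCLM (1.18), HMOX1 (0.95) and GSS (-0.59), and among endoplasmic reticulum genes SDF2L1 (-0.69) and MANF (-0.66).

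Calls lost without at least 1 array were, among the 10 genes, ATF4 (0.55), DDIT3 (-0.41), ASNS (0.48) and SLC7A5 (-0.56). In the lists they were EIF2AK4 (0.51), DNAJC3 (-0.63), PPP1CB (0.43), PSPH (0.53), PYCR1 (-0.46), PYCR3 (-0.43), SLC7A2 (-0.48), SLC1A4 (-0.44), SLC36A4 (0.60), EPRS1 (0.52), TXNRD1 (0.53), CRELD2 (-0.40), HYOU1 (-0.37), RRAGC (0.62) and MIOS (0.49). The calls of PYCR3, CRELD2 and HYOU1 were lost whichever array was left out.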

How the results depend on the processing

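Of 39 calls among the 10 genes, 27 held without each array in turn and 37 in every other alternative. With 1 array left out, the members called ranged from 5 to 7 on knockdown in DMSO, 3 to 7 under PLX4032 in knockdown cells, 4 to 7 on knockdown in PLX4032 and 2 to 5 for the interaction. All genes called ranged from 3723 to 6377 on knockdown in DMSO, 4738 to 6441 under PLX4032 in scrambled cells, 4655 to 6422 in knockdown cells, 3702 to 5526 on knockdown in PLX4032, 7103 to 8715 for both perturbations and 1278 to 2132 for the interaction. Some values that did not pass the test as reported changed sign. For both perturbations, ASNS was 0.060 with repeated quantile normalization and ATF4 -0.027 with centred arrays. With 1 array left out, the change for both perturbations ranged from -0.088 to 0.050 for ASNS, -0.039 to 0.046 for ATF4 by its main probe set (0.26, adjusted p = 0.0225, with the mean of its probe sets) and -0.21 to 0.20 for CHAC1. That on knockdown in PLX4032 ranged from -0.40 to 0.011 for CHAC1 and -0.38 to 0.14 for SLC7A11. That on knockdown in DMSO ranged from -0.024 to 0.044 for TRIB3 and -0.20 to 0.049 for SLC7A11, and the SLC7A11 interaction from -0.30 to 0.22. The cause was not tested. The labels do not say whether arrays with the same replicate letter were made together. Deviations of the A arrays correlated at -0.094 to 0.329 between groups, highest for scrambled DMSO with knockdown PLX4032 cells. With the replicate block, 7, 7, 7, 6, 7 and 5 members and 6146, 6295, 6202, 5279, 9031 and 2176 genes were called (knockdown in DMSO, PLX4032 in scrambled and then in knockdown cells, knockdown in PLX4032, the combination, the interaction), and among the members it ended the DDIT3 interaction call and added that of CHAC1. The interaction uses all groups, so no fit on part of them was made.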
